A study of Mus musculus with 6 samples.

Results

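Arl2bp and 7 genes whose products work with it around the small GTPases ARL2 and ARL3 were examined in splenic effector memory CD4+ T cells, which are antigen-experienced helper T cells. The set holds Arl2bp, Arl2, Arl3, Pde6d, Unc119, Tbcd, Tbce and Elmod2, 8 of the 34866 genes in the deposited table, and all 8 passed the filter on low counts that left 13374 genes. Arl2bp was picked because its level differed between the genotypes in these same libraries, so its difference is given as a description. The other 7 were picked for the known functions of their products. RNA came from live sorted cells of Il1rn knockout mice (Il1rnKO, 3 libraries) and of wild-type mice (WT, 3 libraries), and poly(A)-selected RNA was sequenced from both ends. The product of Il1rn competes with interleukin-1 for its receptor without setting off a signal. The labels give no age, sex, strain, treatment or description of the Il1rn allele. They also leave unsaid whether each library is a mouse of its own, and the p-values below therefore reflect library-to-library spread that may be technical.

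ARL2 and ARL3 are ARF-like GTPases that switch between a GDP-bound and a GTP-bound state and bind their effectors in the GTP-bound state. ARL2BP, also called BART, is such an effector of ARL2; it has been found in the cytosol and in mitochondria, and in human cells it was reported to hold STAT3 in the nucleus. PDE6D and UNC119 are carriers that shield the lipid tails of membrane proteins, and GTP-bound ARL3 makes them release that cargo. TBCD and TBCE are cofactors that assemble and take apart the tubulin dimer, and ARL2 acts together with TBCD. ELMOD2 stimulates GTP hydrolysis by ARL2. In T cells UNC119 is known as a partner of the SRC-family kinases LCK and FYN.

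Total counts lay between 14158897 and 17205393 in the Il1rnKO libraries and between 14102183 and 17677217 in the WT libraries. Il1rn itself had 1, 3 and 1 counts in Il1rnKO 1, 2 and 3, against 6, 10 and 0 in WT 1, 2 and 3, which is too few to check the genotype labels. The 7 CD4 T cell markers, Cd3d, Cd3e, Cd3g, Cd4, Trac, Cd28 and Icos, summed to 3490 to 4580 CPM (counts relative to the scaled library total) in Il1rnKO and 3900 to 4260 CPM in WT, while Cd8a and Cd8b1 together stayed between 3.52 and 7.62 CPM in all 6 libraries. The 5 effector memory markers, Cd44, S100a4, Cxcr3, Il7r and Itgb1, summed to 2520 to 3600 CPM in Il1rnKO and 2840 to 3410 CPM in WT. In such bulk samples, fewer cells with a transcript and less of it per cell cannot be told apart.

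Arl2bp was more abundant in every Il1rnKO library than in any WT library. It had 86.4, 69.8 and 105 CPM in Il1rnKO 1, 2 and 3, against 26.8, 26.8 and 27.2 CPM in WT 1, 2 and 3. The Il1rnKO libraries thus differed more among themselves than the WT libraries, which were almost equal on this scale. Of the knockout libraries, Il1rnKO 3 was highest and Il1rnKO 2 lowest. The mean was 87.1 ± 17.7 CPM in Il1rnKO and 26.9 ± 0.230 CPM in WT (SD, n = 3 each), 3.24-fold higher in the knockout. On the log2 scale of the edgeR fit the difference was 1.70 (standard error, SE, 0.18), and 2 SE to either side span a 2.53-fold to 4.14-fold increase. These values rest on 1562, 1089 and 1698 counts in Il1rnKO and on 487, 433 and 351 counts in WT.

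The spread of Arl2bp within each group was set against what counting alone gives. In Il1rnKO its coefficient of variation was 20.4%, above the 2.63% expected from counting at that depth. Beyond counting, the common coefficient of variation of the edgeR fit over all genes tested was 0.286 as a fraction of the mean. The knockout spread of Arl2bp was therefore not wide for these libraries. In WT it was 0.853%, below the 4.86% expected from counting. With TMM scaling the 3 WT values therefore lay closer together than counts of this size usually do, and their SD is smaller than the precision of the measurement. This closeness depends on the scaling. Per kilobase of exon, the WT values were 9.55 to 9.70 CPM (SD 0.0819) with TMM scaling. On plain library totals they were 8.88 to 9.83 CPM (SD 0.489). In Il1rnKO the SD per kilobase was 6.33 CPM with TMM scaling and 3.97 CPM on plain library totals. Counting error here treats reads as independent molecules, which reads without molecular identifiers are not.

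The Arl2bp gene lies on chromosome 8 from 94666600 to 94674425 on the plus strand (GRCm38, ENSMUSG00000031776.17). GENCODE M21 lists 6 transcripts, of which 3 are protein-coding. Arl2bp-201, the longest, has 6 exons, 2063 exonic bases and 489 coding bases; Arl2bp-202 reads through the end of that first exon, starts translation farther on and has 456 coding bases. The counts are per gene and pool these forms. Arl2bp-203 and Arl2bp-205 end exon 1 at the same base as Arl2bp-201. The sequence at which Arl2bp-201 and Arl2bp-202 part is shown, at chr8:94666890-94666919 on the plus strand (RefSeq, GRCm38.p6). A read that runs on across it could come from Arl2bp-202 or from unspliced Arl2bp-201 RNA. The last 12 bases of exon 1 of Arl2bp-201 are in capitals. The following 18 bases, intron for that transcript and exon for Arl2bp-202, are in lower case.
end of Arl2bp exon 1: CGCGCTGTCCTTgtaagtgaagcggccagg
All 6 Arl2bp values were whole numbers as deposited, and no other annotated gene overlaps it on either strand.

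**Figure D1:**
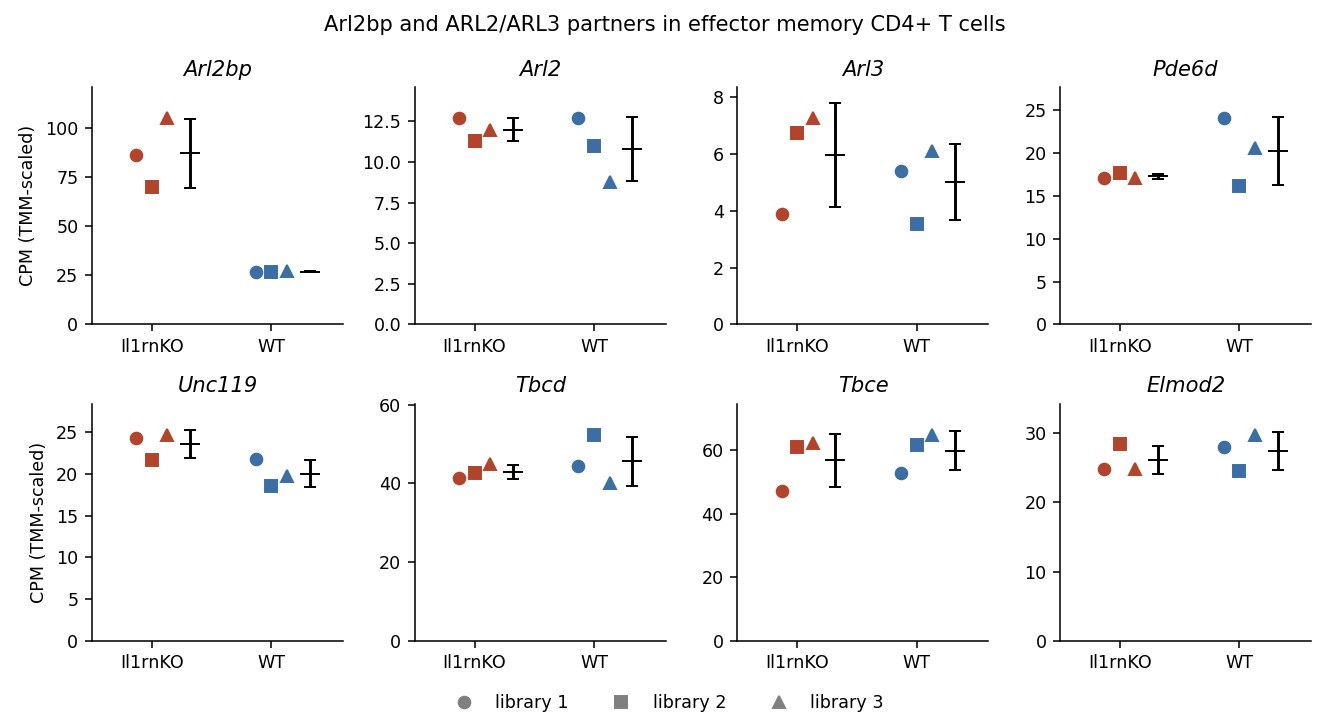
TMM-scaled CPM (vertical axes, from 0) of the 8 genes in the 3 Il1rnKO libraries (red) and the 3 WT libraries (blue), with marker shapes for library 1, 2 and 3 and the mean ± SD beside each group. Arl2bp sits between 69.8 and 105 CPM in Il1rnKO and between 26.8 and 27.2 CPM in WT; the ranges of the 2 groups overlap for the other 7 genes.

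The GTPases themselves were at low levels and their ranges overlapped between the genotypes. Arl2 (chromosome 19, 6134374 to 6141548) had 12.7, 11.3 and 12 CPM in Il1rnKO 1, 2 and 3, against 12.7, 11.0 and 8.75 CPM in WT 1, 2 and 3. WT 3 was lowest, and the highest Il1rnKO and WT libraries were equal to 3 digits. Its log2 fold change was 0.14 (SE 0.24, adjusted p = 0.988 by edgeR's quasi-likelihood test), with 2 SE reaching from -0.33 to 0.62. Arl3 (chromosome 19, 46531096 to 46573198) had 3.87, 6.73 and 7.25 CPM in Il1rnKO, against 5.38, 3.53 and 6.11 CPM in WT. It rests on 57 to 117 counts a library and was the most variable of the 7 partners, with a coefficient of variation of 30.6% in Il1rnKO and 26.6% in WT, where counting alone would give 10.1 and 11.3%. Its log2 fold change of 0.25 (SE 0.38) has the widest interval, -0.52 to 1.02, whose upper end is a 2.02-fold increase.

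The lipid-cargo carriers lay on opposite sides of 0. Unc119 (chromosome 11, 78343482 to 78349164) had 24.3, 21.7 and 24.7 CPM in Il1rnKO, against 21.8, 18.6 and 19.7 CPM in WT. The only crossing was that Il1rnKO 2 lay just below WT 1, and the log2 fold change was 0.24 (SE 0.17, adjusted p = 0.988 by edgeR). Pde6d (chromosome 1, 86542994 to 86582629) had 17.1, 17.6 and 17.1 CPM in Il1rnKO, against 24.0, 16.1 and 20.5 CPM in WT. Here the Il1rnKO libraries were the tight group with TMM scaling, with a coefficient of variation of 1.55% against 5.91% from counting, and WT had 19.4%. Per kilobase of exon, the SD of Pde6d in Il1rnKO was 0.123 CPM with TMM scaling. On plain library totals it was 0.77 CPM, so this tightness depends on the scaling. The log2 fold change of Pde6d was -0.23 (SE 0.20), with 2 SE reaching from -0.63 to 0.17.

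The tubulin cofactors and the ARL2 GTPase-activating protein differed least. Tbcd (chromosome 11, 121451949 to 121617164) had 41.4, 42.7 and 44.9 CPM in Il1rnKO, against 44.4, 52.4 and 40.1 CPM in WT, and Tbce (chromosome 13, 13997949 to 14039638) had 47.3, 61.1 and 62.2 CPM in Il1rnKO, against 53.0, 61.8 and 65.0 CPM in WT. Elmod2 (chromosome 8, 83312632 to 83332486) had 24.9, 28.4 and 24.9 CPM in Il1rnKO, against 28.0, 24.5 and 29.8 CPM in WT. In each of the 3 genes the WT range reached above the Il1rnKO range. For Tbcd and Elmod2 it also reached below, so that WT enclosed Il1rnKO. Log2 fold changes were -0.09 (SE 0.16) for Tbcd, -0.08 (SE 0.16) for Tbce and -0.08 (SE 0.17) for Elmod2, and 2 SE around them stayed between -0.41 and 0.26. The sign of Tbcd turned without WT 2 and that of Tbce without Il1rnKO 1 (0.02 in both). Tbcd and Tbce each overlap a gene on the opposite strand with reads of its own, B3gntl1 (up to 32.8 CPM) and B3galnt2 (up to 45.5 CPM), and whether the counting used strand is not given in the sources used here. Tbce and Elmod2 had decimals in all 6 libraries, so part of their reads was shared out by an estimate.

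Of the 8 genes, 1 passed the edgeR test at an adjusted p under 0.05, namely Arl2bp, which was picked by that result, and 0 of the other 7 passed. Over all 13374 genes 7 passed, which is 0.0523%, 4 of them higher (0.0299%) and 3 lower (0.0224%) in Il1rnKO, and 545 (4.08%) had an unadjusted p under 0.05, Arl2bp alone among the 8. The call of Arl2bp was lost when any WT library was left out (adjusted p = 0.0868, 0.0967 and 0.0644 by edgeR without WT 1, 2 and 3), while its log2 fold change there was 1.66, 1.69 and 1.70. Of the 7 partners 3 had positive and 4 negative fold changes, with a median of -0.08, beside 0.02 over all genes tested. The ranges of the groups did not overlap for 1 of the 8, again Arl2bp, and for 9.41% of all genes tested (5.78% with Il1rnKO the higher).

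Counted against its partners within each library, a measure that does not depend on scaling between libraries, Arl2bp took a larger share in the knockout. Of all counts of the 8 genes, Arl2bp held 33.5, 26.9 and 35.3% in Il1rnKO 1, 2 and 3, against 12.4, 12.5 and 12.5% in WT 1, 2 and 3. The other 7 genes together summed to 172, 189 and 193 CPM in Il1rnKO, against 189, 188 and 190 CPM in WT. The ratio of Arl2bp counts to Arl2 counts was 6.82, 6.19 and 8.80 in Il1rnKO, against 2.10, 2.45 and 3.11 in WT. Against Unc119 the ratio averaged 3.68 ± 0.527 in Il1rnKO and 1.35 ± 0.110 in WT, and against Tbce 1.55 ± 0.362 in Il1rnKO and 0.452 ± 0.0465 in WT (SD, n = 3 each). The 7 ratios were 2.72 to 3.70 times higher in Il1rnKO, and the ranges of the groups did not overlap for any of them. All of these ratios share the Arl2bp counts, so they are not separate observations. Arl2bp was picked for its difference and the partners differed little, so the higher shares and ratios in Il1rnKO follow from that choice.

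**Figure D2:**
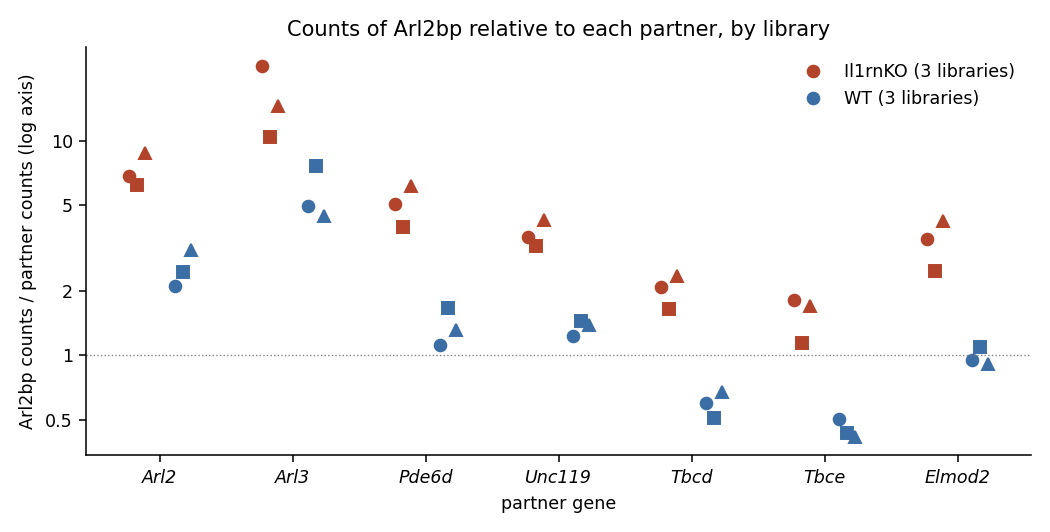
Ratio of Arl2bp counts to the counts of each of the 7 partners in the same library (vertical axis, log scale) in Il1rnKO (red, left in each pair) and WT (blue), with marker shapes for library 1, 2 and 3. For each partner the 3 Il1rnKO ratios lie above the 3 WT ratios; the dotted line marks equal counts.

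Levels were then compared between genes per kilobase of exon, since longer transcripts collect more reads. In Il1rnKO, Arl2bp stood first among the 8 with 31.1 ± 6.33 CPM per kilobase, followed by Tbce with 12.5 ± 1.82, Unc119 with 9.62 ± 0.677, Pde6d with 7.92 ± 0.123, Tbcd with 5.31 ± 0.221, Arl2 with 3.46 ± 0.200, Arl3 with 2.39 ± 0.731 and Elmod2 with 2.34 ± 0.183 (SD, n = 3). In that order only Arl3 and Elmod2 overlapped as neighbours. In WT, Tbce stood first with 13.2 ± 1.37 CPM per kilobase, followed by Arl2bp with 9.60 ± 0.0819, Pde6d with 9.28 ± 1.79, Unc119 with 8.17 ± 0.662, Tbcd with 5.64 ± 0.772, Arl2 with 3.13 ± 0.579, Elmod2 with 2.46 ± 0.242 and Arl3 with 2.01 ± 0.536 (SD, n = 3). There the neighbours Arl2bp and Pde6d overlapped, as did Pde6d and Unc119, Arl2 and Elmod2, and Elmod2 and Arl3. Among all genes tested Arl2bp was above 89.0% of them in Il1rnKO and above 64.0% in WT on this scale. With the longest transcript as the length, Arl2bp remained first in Il1rnKO (42.2 CPM per kilobase) but stood after Tbce, Pde6d and Unc119 in WT (13 CPM per kilobase).

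Further genes of the ARL2 and ARL3 network were looked up in the same fit. The 6 lists of pathway genes named 81 genes, of which 71 were tested and 9 were below the filter; 1, Cct6a, was not analysed here. None of the 71 was called by edgeR at an adjusted p under 0.05, beside 0.0523% of all genes tested, a share at which a list of this size would usually hold no call. An unadjusted p under 0.05 was found for 1 of the 71, beside 4.08% of all genes tested, and the alternatives that were tried called 0 of the 71 as well. There were 23 positive and 48 negative fold changes with a median of -0.04, beside 52.6% positive over all genes tested.

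Among the further regulators and effectors, 1 of 5 tested genes was positive (median -0.18). Unc119b, which encodes the paralog of UNC119, had a log2 fold change of -0.22 (SE 0.15) at 95.0 ± 10.2 CPM in Il1rnKO and 110 ± 8.81 CPM in WT. Rp2, the GTPase-activating protein of ARL3, had -0.19 (SE 0.20), and Cfap36, which encodes a protein with the BART-like fold that binds ARL3, had -0.18 (SE 0.21). Elmod1 was below the filter.

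Tubulin folding genes, which include the remaining cofactors, the chaperonin ring and prefoldin, had negative fold changes in 16 of 18 tested genes (median -0.15), beside 52.6% positive over all genes tested. The ranges of the groups overlapped for all 18, and Il1rnKO 3 was not below the lowest WT library in any of them. Vbp1 and Pfdn4, subunits of prefoldin, had -0.38 (SE 0.17) and -0.61 (SE 0.31), and Tbcel, a tubulin cofactor E-like gene, had 0.23 (SE 0.19). Vbp1, the gene with the unadjusted p under 0.05 (0.0496), had 42.6, 45.4 and 58.5 CPM in Il1rnKO 1, 2 and 3, against 55.7, 70.4 and 64.9 CPM in WT 1, 2 and 3, with Il1rnKO 3 above WT 1. Of the tubulins, 12 of 17 were tested, 5 positive and 7 negative (median -0.02). Tubb4a and Tubb2a, beta-tubulins, had 0.60 (SE 0.37) and -0.35 (SE 0.24), and Tubg1, the gamma-tubulin of microtubule nucleation, had 0.25 (SE 0.20).

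The lipid-modified cargo of UNC119 and PDE6D had 3 positive and 7 negative fold changes (median -0.05). Nras, a farnesylated RAS GTPase, had 0.17 (SE 0.14), Rab28, a prenylated GTPase, -0.20 (SE 0.24), and Rpgr, a ciliary regulator, -0.26 (SE 0.39). Lck and Fyn, the kinases bound by UNC119, were looked up after their values were seen: Lck had 855 ± 32.4 CPM in Il1rnKO and 809 ± 60.5 CPM in WT, and Fyn 542 ± 51.6 CPM in Il1rnKO and 573 ± 71.3 CPM in WT (SD, n = 3 each). Among mitochondrial and STAT3 partners 2 of 5 were positive (median -0.01). Stat3 had 236 ± 33.5 CPM in Il1rnKO and 205 ± 38.2 CPM in WT (SD, n = 3 each; log2 fold change 0.20, SE 0.18), Slc25a5, an ADP/ATP carrier of the inner mitochondrial membrane, had -0.12 (SE 0.22; 0.01 without Il1rnKO 2), and Mfn2, a mitofusin, had 0.10 (SE 0.23; -0.19 without Il1rnKO 1). Of the other ARF family GTPases 21 of 24 were tested, 10 positive and 11 negative (median -0.01). Arl4a, Arl1 and Arf4, the first at the plasma membrane and the other two at the Golgi, had -0.38 (SE 0.25), -0.34 (SE 0.23) and 0.20 (SE 0.14).

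**Figure D3:**
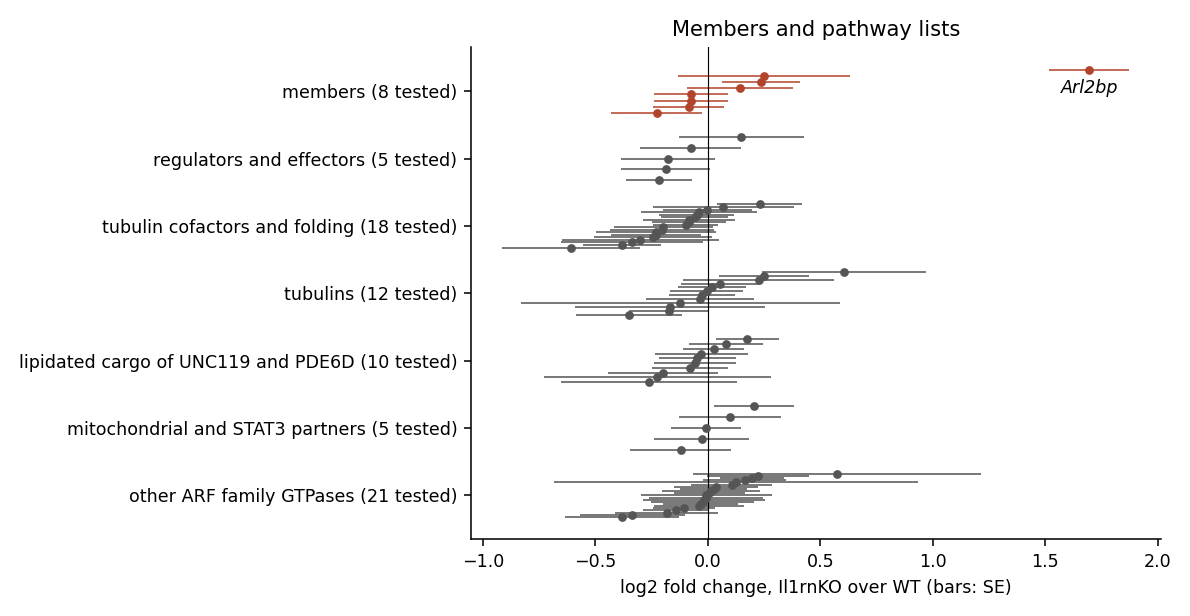
Log2 fold change of Il1rnKO over WT (horizontal axis, bars SE) for each tested gene of the 8-gene set (red) and of the 6 pathway lists (grey), 1 point a gene, sorted within its list. Arl2bp lies at 1.70; the other 7 members run from -0.23 to 0.25 and the 71 listed genes from -0.61 to 0.60.

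Genes around Arl2bp on chromosome 8 did not share its difference as a group. Of the 46 other genes that GENCODE M21 places within 500 kb of it, 28 were in the table and 19 were tested, 10 of them positive and 9 negative with a median of 0.04; none was called by edgeR at an adjusted p under 0.05 (0.0523% over all genes tested), and 1 had an unadjusted p under 0.05. Rspry1, which ends 6325 bases before Arl2bp, had 52.2, 54.2 and 76.7 CPM in Il1rnKO, against 59.1, 62.6 and 78.9 CPM in WT. Pllp, whose end lies 469 bases beyond that of Arl2bp on the opposite strand, stayed between 0.577 and 1.42 CPM in all 6 libraries. Fam192a and Ciapin1, the next tested protein-coding genes on either side, differed by 0.31 (SE 0.18) and 0.04 (SE 0.15) on the log2 scale, the second with a sign that turned without Il1rnKO 3 or WT 1. Adgrg5, an adhesion G protein-coupled receptor gene named after its values were seen, was the one with the unadjusted p under 0.05, with 6.86, 19.0 and 4.65 CPM in Il1rnKO, against 4.45, 2.04 and 5.34 CPM in WT. Its ranges overlapped and the highest value came from Il1rnKO 2, the library in which Arl2bp was lowest of the 3.

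**Figure D4:**
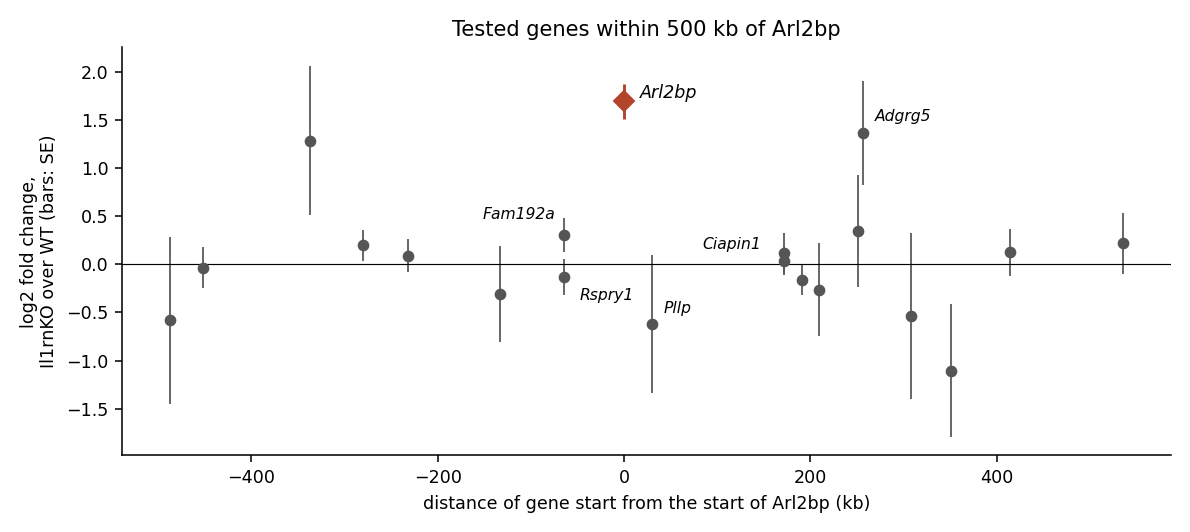
Log2 fold change of Il1rnKO over WT (vertical axis, bars SE) of the 19 tested genes that overlap the window of 500 kb to either side of Arl2bp, against the distance of each gene's start from that of Arl2bp in kilobases. Arl2bp (red diamond) lies at 1.70; Rspry1 and Pllp, the nearest tested genes on its 2 sides, lie at -0.13 and -0.62.

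The genes whose profile over the 6 libraries was most like that of Arl2bp were found by the root mean square difference of log2 CPM, each gene centred on its mean. Among 10298 named protein-coding genes the median difference from Arl2bp was 0.879 log2 units, and its 7 partners lay between 0.730 (Unc119) and 0.971 (Pde6d). The smallest differences were those of Rab3d at 0.241, Il1rl1 at 0.276, H2-Q6 at 0.313, Mmp25 at 0.318 and Oas2 at 0.319. Rab3d, a RAB GTPase of regulated secretion, had 18.6, 15.9 and 19.6 CPM in Il1rnKO, against 6.76, 7.42 and 8.36 CPM in WT. Il1rl1, the interleukin-33 receptor, had 39.6, 33.6 and 59.1 CPM in Il1rnKO, against 17.3, 19.9 and 20.0 CPM in WT. In Rab3d, Il1rl1 and Mmp25, as in Arl2bp, Il1rnKO 3 was the highest library and Il1rnKO 2 the lowest of the knockout group. In H2-Q6 and Oas2, Il1rnKO 1 was the highest instead. H2-Q6, a nonclassical class I gene with near-identical neighbours that make its counts uncertain, had 386 ± 36.5 CPM in Il1rnKO and 168 ± 18.3 CPM in WT (SD, n = 3 each). Mmp25, a membrane-anchored metalloproteinase gene, had 6.53 ± 2.25 CPM in Il1rnKO and 2.88 ± 0.150 CPM in WT, and Oas2, an interferon-induced oligoadenylate synthetase gene, 9.64 ± 1.08 CPM in Il1rnKO and 4.24 ± 0.665 CPM in WT (SD, n = 3 each). Of these genes only H2-Q6 was called (adjusted p = 0.0293 by edgeR). Adjusted p by edgeR was 0.218 for Rab3d, 0.272 for Il1rl1, 0.909 for Oas2 and 0.988 for Mmp25. A small difference from Arl2bp requires a like difference between the genotypes, so the fold changes of these genes follow from how they were chosen. The same choice favours a like order of the libraries within the knockout group.

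**Figure D5:**
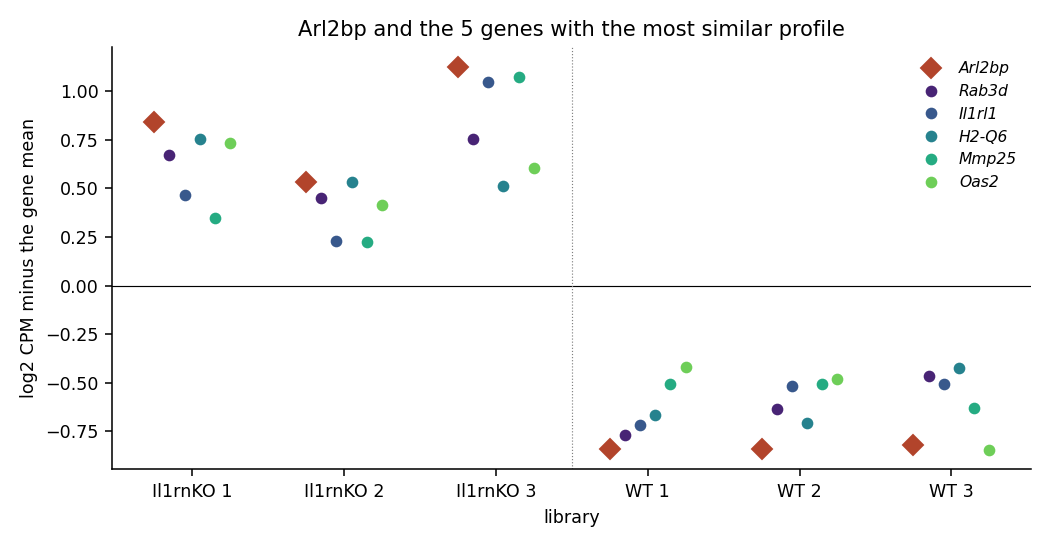
Log2 CPM minus the gene's own mean (vertical axis) in each library for Arl2bp (red diamonds) and the 5 genes with the smallest root mean square difference from it. All 6 genes lie above 0 in the 3 Il1rnKO libraries and below 0 in the 3 WT libraries.

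Transcripts of some other cell types, neutrophil markers above all, were higher in the Il1rnKO libraries. The 10 neutrophil markers summed to 39.4, 36.5 and 116 CPM in Il1rnKO 1, 2 and 3, against 7.14, 5.94 and 4.26 CPM in WT 1, 2 and 3, so that the library with most Arl2bp also had most of these. All 10 had a higher mean in Il1rnKO, 6 of them without overlap of the groups, beside 5.78% of all genes tested. Ngp and Elane were at 0 in every WT library. Elane had only 3 counts in all, from Il1rnKO 1 alone, and was below the filter, so its absence from WT tells little. Of the 8 neutrophil markers tested, 1 was called by edgeR at an adjusted p under 0.05, namely Ngp, beside 0.0523% of all genes tested. Mean Arl2bp was 60.2 CPM higher in Il1rnKO than in WT. The 6 macrophage and monocyte markers summed to 15.3 to 24.5 CPM in Il1rnKO and 5.50 to 12.3 CPM in WT, with C1qa at 0 in every WT library. Erythroid markers summed to 5.31, 7.05 and 9.86 CPM in Il1rnKO 1, 2 and 3, against 4.94, 4.02 and 3.41 CPM in WT 1, 2 and 3. Neutrophil, macrophage and erythroid sums were thus each higher in every Il1rnKO library than in any WT library. None of the macrophage, monocyte or erythroid markers tested was called by edgeR, and 1 of 6 in each of the 2 lists was higher without overlap of the groups. Of the naive T cell markers, Ccr7 averaged 132 ± 32.3 CPM in Il1rnKO and 210 ± 67.5 CPM in WT, Lef1 69.4 ± 14.2 CPM in Il1rnKO and 75.5 ± 11.2 CPM in WT, and Tcf7 869 ± 146 CPM in Il1rnKO and 982 ± 178 CPM in WT (SD, n = 3 each), with adjusted p = 0.988 by edgeR for all 3. The summed ranges of B cell markers (3.46 to 9.55 CPM in Il1rnKO, 4.33 to 10.5 CPM in WT) and NK cell markers (6.03 to 12.2 CPM in Il1rnKO, 7.82 to 12.5 CPM in WT) overlapped, with Klra8 of the NK cell markers at 0 in all 6 libraries. The 13 mitochondrial genes accounted for 3.69, 3.44 and 8.34% of counts in Il1rnKO 1, 2 and 3, against 5.68, 7.32 and 8.92% in WT 1, 2 and 3. The part of these transcripts in the Arl2bp difference was not tested.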

How the data were processed

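The authors deposited 1 table of estimated counts per gene, not scaled to a common total, for 3 Il1rnKO and 3 WT libraries, which were mapped to samples by title. Between 18.4 and 23.7% of the values in a library had decimals. Per the submitters' processing notes the build was GRCm38. Which aligner and counting program were run, and whether strand was used, is not given in the sources used here. Estimated counts were rounded. Symbols, coordinates and exon lengths came from GENCODE M21 (GRCm38), which matched 34652 of 34866 identifiers without their version. The contrast of Il1rnKO with WT was fitted in R 4.3.3 by edgeR 4.0.16 (TMM, filterByExpr at 10 counts and a total of 15, two-sided quasi-likelihood test, Benjamini-Hochberg adjustment over 13374 genes, threshold 0.05). The fit was tested on simulated counts. CPM are TMM-scaled. SEs come from the F statistic, and intervals are 2 SE. Alternatives were RLE and upper-quartile factors, no filter, 50 counts in 3 libraries, DESeq2 1.42.0, limma 3.58.1 voom with quality weights, a robust fit, the replicate number as a block, and each library left out. The 8 genes, the lists and the tests were chosen with earlier results of these data known. Named were the 8 genes, the 3 genes with the smallest p in each pathway list, the 2 nearest tested protein-coding genes on either side of Arl2bp, and the 5 genes most like it among those with a mean log2 CPM of at least 1. No list was tested as a set. Not every marker of naive T cells and erythroid cells is reported here.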

Additional observations from a re-analysis of the deposited data

How the results depend on the processing

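Arl2bp kept a positive log2 fold change under all 14 alternatives, between 1.53 (without Il1rnKO 3) and 1.81 (without Il1rnKO 2), and was called by 11 of them; the call was lost without WT 1, WT 2 or WT 3 and kept without any 1 Il1rnKO library; the cause was not tested. None of the 14 called any of the 7 partners, the pathway genes or the genes around Arl2bp. The number of genes called over the whole table was 7; it was 58 with no filter, 25 with DESeq2, 11 with limma voom, 11 with the replicate block, and 3 to 10 with a library left out. Signs turned for values near 0: with a library left out, Tbcd ranged from -0.172 to 0.023, Tbce from -0.191 to 0.016, Slc25a5 from -0.422 to 0.012, Mfn2 from -0.191 to 0.26, Rspry1 from -0.331 to 0.002 and Ciapin1 from -0.06 to 0.072, while limma voom gave -0.011 for Ciapin1; the cause was not tested. Of the most similar genes, Rab3d and Il1rl1 passed with no filter and with DESeq2, and H2-Q6 lost its call without any library other than Il1rnKO 3. Deviations of same-numbered libraries from their group means correlated across genes at 0.108, 0.053 and 0.116 for numbers 1, 2 and 3. Each library correlated best with its own number, but these values are small. Deviations cancel out within a group, so the correlations are tied to each other and cannot show a pairing. The labels state no pairing either. With the replicate block the Arl2bp value was 1.675. Among the 8 genes depth limits Arl3 most, with 57 to 117 counts a library.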
